A study of Mus musculus with 6 samples.

Results

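Transforming growth factor-β (TGF-β) signalling genes were examined in splenic NK cells that lack METTL3, the enzyme that writes N6-methyladenosine (m6A) on mRNA. The genes were the ligand Tgfb1, the receptors Tgfbr1, Tgfbr2 and Tgfbr3, the signal carriers Smad2, Smad3 and Smad4, the inhibitory Smad7 and the repressors Ski and Skil. They were taken by symbol from the mRNA-seq table, and all 10 were among its 14490 genes. NK cells had been sorted from the spleens of C57BL/6 mice aged 6 to 10 weeks, with 3 WT and 3 cKO samples. WT mice were Mettl3fl/fl without Cre. The cKO mice were Ncr1Cre-Mettl3fl/fl in the labels, and Ncr1Cre/+, with an Ncr1 allele free of Cre, in the study's methods. Cre made from the Ncr1 locus, active in NK cells and other NKp46+ cells, removes Mettl3 in them. Both genotypes carry the floxed allele, and the effect of Cre itself cannot be told apart from that of the deletion. The labels do not say whether samples came from separate mice or pools, so p-values measure the spread between these samples only.

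TGF-β is a secreted cytokine that restrains NK cells, lowering their cytotoxicity and interferon-γ production and pushing them towards tissue-resident innate lymphoid features. It binds the type II receptor TGFBR2, which recruits and phosphorylates the type I receptor TGFBR1, while TGFBR3 (betaglycan) presents the ligand. TGFBR1 then phosphorylates SMAD2 and SMAD3, which join SMAD4 and enter the nucleus. SMAD7 blocks the receptor, and SKI and SKIL (SnoN) hold SMAD complexes inactive on DNA. Smad7 and Skil are themselves classical targets of the pathway, so their products form negative feedback.

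Between 55965515 and 71464042 reads per sample fell on the listed genes. Mettl3, examined as a check of the labels, had 1192 to 1303 normalized counts in WT and 297 to 405 in cKO, so the labels fitted their libraries. A normalized count is a read count divided by the size factor of its sample, and values of single samples stand in the order of samples 1, 2 and 3 of each genotype. Fold changes of cKO over WT are given on the log2 scale with their standard error (SE), and a mean is followed by the SD over the 3 samples of a genotype (n = 3).

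The components of the pathway differed between genotypes by small amounts and in both directions. By limma, 6 of the 10 genes passed an adjusted p of 0.05, where 36.6% of all 14490 genes did. The 10 genes were abundant, with a median of 8270 normalized counts beside 880 over all genes. The shares of all genes given here are not matched for level. Ski, Smad3, Smad7 and Smad4 rose by between 10.1% and 16.7%, and 17.8% of all genes were called higher. Skil and Tgfbr3 fell, with changes of −14.9% and −33.2%, and 18.8% of all genes were called lower. With samples scaled to equal totals, the median of all genes moved up to 0.051 and 63.4% of the called genes were higher in place of 48.5%, but the same counts of the 10 genes, 4 higher and 2 lower, were called. Tgfb1, Tgfbr1, Tgfbr2 and Smad2 did not pass the test. The median log2 fold change of the 10 genes was 0.022, beside 0.0014 over all genes, and the median of its size was 0.14, beside 0.17. The study's own rule, an unadjusted p under 0.05 and a log2 fold change over 1 or under −1, was met by 0 of the 10 genes in limma and by 0 in limma-voom, and by 1.75% of all genes. An unadjusted p under 0.05 alone was reached by 7 of the 10. The share of all genes reaching it was not counted, and it cannot be below the 36.6% of the adjusted threshold. In these bulk samples, a change in the share of NK cell subsets and a change in RNA per cell cannot be told apart.

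**Figure D1:**
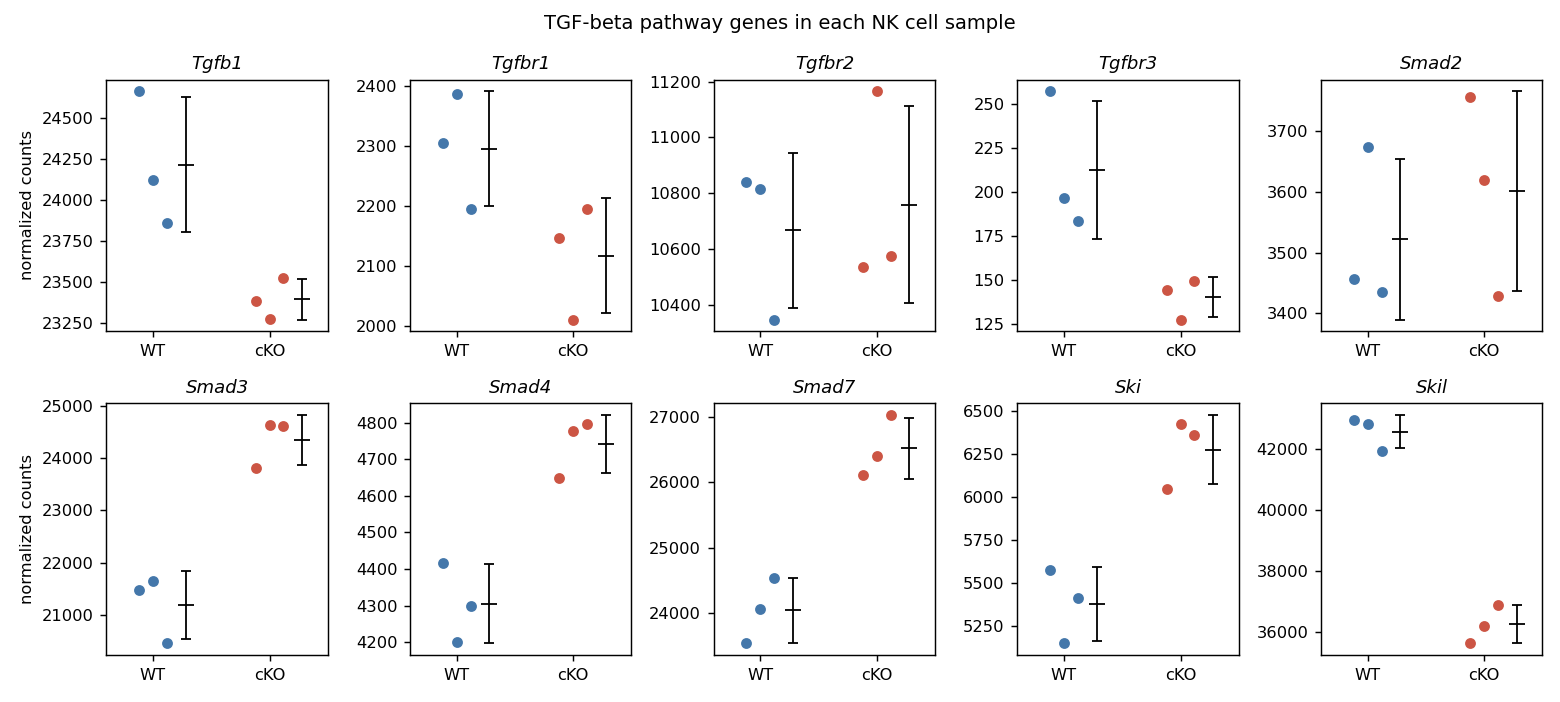
Normalized counts (y axes, one scale per gene, not starting at 0) of the 10 TGF-β pathway genes in the 3 WT (blue) and 3 cKO (red) samples, with mean and SD in black. The cKO samples lie above the WT samples for Smad3, Smad4, Smad7 and Ski and below them for Skil and Tgfbr3, while Tgfbr2 and Smad2 overlap.

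Tgfb1, which encodes the ligand TGF-β1, was abundant in NK cells of both genotypes. It had 24660, 24122 and 23861 normalized counts in WT and 23387, 23276 and 23525 in cKO. All cKO samples lay below all WT samples, but the gap was narrow. The means were 24214 ± 408 in WT and 23396 ± 125 in cKO. The log2 fold change was −0.049 (SE 0.0295, 95% confidence interval −0.11 to 0.011, adjusted p = 0.203 by limma). When the values were corrected for GC content and transcript length, it was −0.089 with an adjusted p of 0.0299. The Tgfb1 transcript has a GC content of 62.5%, higher than that of nearly all listed genes (percentile 98.4). With samples scaled to equal totals, the log2 fold change was 0.00017.

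Of the receptors, the 2 signalling chains did not pass the test and the co-receptor fell. Tgfbr2, the ligand-binding type II kinase, had 10838, 10815 and 10345 normalized counts in WT and 10535, 11166 and 10576 in cKO. The genotypes overlapped. The log2 fold change of Tgfbr2 was 0.012 (SE 0.0344, adjusted p = 0.820 by limma), with a 95% confidence interval that runs from a change of −3.97% to one of 5.93%.

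Tgfbr1, the type I kinase that phosphorylates the SMADs, had 2305, 2385 and 2195 normalized counts in WT. It had 2147, 2011 and 2195 in cKO. The highest cKO sample and the lowest WT sample were level. The log2 fold change was −0.12 (SE 0.0508, 95% confidence interval −0.22 to −0.012), and its limma adjusted p was 0.0761. Without WT sample 3, the lowest WT sample, it was −0.15 with an adjusted p of 0.0422.

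Tgfbr3, the co-receptor betaglycan, was the scarcest of the 10 genes and showed the largest fold change among them. It had 257, 196 and 183 normalized counts in WT and 144, 127 and 149 in cKO. All cKO samples were below all WT samples, and WT sample 1 stood highest. The means were 212 ± 39.4 in WT and 140 ± 11.5 in cKO, a log2 fold change of −0.58 (SE 0.164, adjusted p = 0.00600 by limma). Between 140 and 259 reads lie behind each of these values, and at the lowest of them counting alone gives an error of 8.45%. Without WT sample 1, the fold change shrank to −0.44 with an adjusted p of 0.0668, the only fit in which the call of Tgfbr3 was lost.

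Of the receptor-activated SMADs, Smad3 rose and Smad2 did not pass the test. Smad2 had 3457, 3675 and 3434 normalized counts in WT and 3757, 3619 and 3428 in cKO, and the genotypes overlapped. Its log2 fold change was 0.032 (SE 0.0445, 95% confidence interval −0.060 to 0.12, adjusted p = 0.623 by limma). Smad3, the partner of Smad2 that binds DNA directly, had 21476, 21648 and 20451 in WT. It had 23802, 24643 and 24610 normalized counts in cKO, all above WT. The means of Smad3 were 21191 ± 647 and 24352 ± 477, a log2 fold change of 0.20 (SE 0.0314, adjusted p = 1.16e-05 by limma).

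Smad4, the common partner that both receptor-activated SMADs need, had 4417, 4200 and 4299 normalized counts in WT. It had 4650, 4778 and 4796 in cKO. The genotypes did not overlap. Smad4 rose with a log2 fold change of 0.14 (SE 0.0388, adjusted p = 0.00573 by limma), or 10.1%. Smad7, the inhibitory SMAD, had 23528, 24058 and 24529 normalized counts in WT and 26118, 26409 and 27036 in cKO. It rose in a similar way, and every cKO sample was above every WT sample. Its log2 fold change was 0.14 (SE 0.0301, adjusted p = 0.000484 by limma), or 10.3%.

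The related repressors Ski and Skil moved in opposite directions. Ski had 5575, 5149 and 5413 normalized counts in WT and 6045, 6422 and 6357 in cKO, all above WT. Its log2 fold change was 0.22 (SE 0.0392, adjusted p = 5.61e-05 by limma). Skil was the most abundant of the 10 genes in normalized counts, with 42951, 42838 and 41942 in WT. It had 35641, 36178 and 36887 in cKO, all below WT. The means of Skil were 42577 ± 553 and 36235 ± 625, a log2 fold change of −0.23 (SE 0.0290, adjusted p = 4.02e-07 by limma).

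No overlap between the genotypes was seen in 8 of the 10 genes, 4 with cKO above WT and 4 with cKO below, among them Tgfbr1 by less than 1 normalized count. Over all genes 45.7% did not overlap, 22.7% with cKO above and 23.0% with cKO below, shares that are likewise not matched for level. For each of these 8 genes an exact two-sided permutation test, with 20 possible assignments, gave p = 0.1, which is the lowest value this design can reach. For Tgfbr2 the same exact test gave p = 0.8, and for Smad2 p = 0.7.

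**Figure D2:**
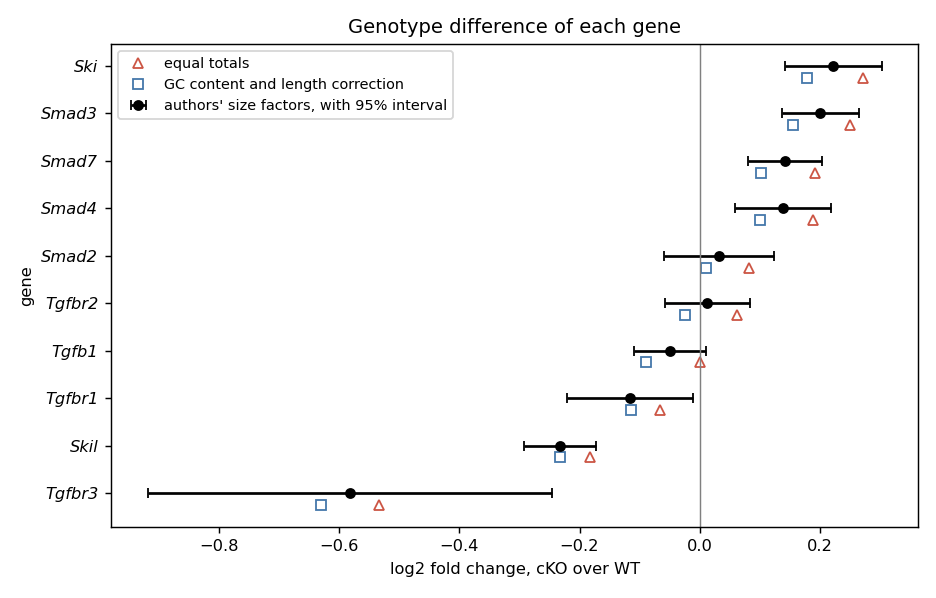
Log2 fold change of cKO over WT (x axis) for each of the 10 genes (y axis), with the 95% confidence interval from limma (black), and the value under equal totals (red triangles) or after correction for GC content and length (blue squares). Equal totals moved all 10 values upward, but Ski, Smad3, Smad7 and Smad4 stayed above 0 and Skil and Tgfbr3 below it under both alternatives.

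Ratios of gene pairs within a sample do not depend on how samples were scaled. The log2 ratio of Skil to Ski was 2.95, 3.06 and 2.95 in WT and 2.56, 2.49 and 2.54 in cKO. The mean ratio was therefore lower in cKO by a difference of −0.46 on the log2 scale. The log2 ratio of Smad2 to Smad3 was −2.59 ± 0.041 in WT and −2.76 ± 0.090 in cKO. The log2 ratio of Tgfbr1 to Tgfbr2 was −2.22 ± 0.031 in WT and −2.34 ± 0.11 in cKO. The log2 ratio of Tgfbr3 to Tgfbr2 was −5.66 ± 0.23 in WT and −6.25 ± 0.17 in cKO. In all 4 ratios the genotypes did not overlap (exact permutation test, two-sided, p = 0.1 for each and 0.1 after Benjamini-Hochberg adjustment over the 4, the smallest p the design allows). The difference in the Tgfbr1 to Tgfbr2 ratio, −0.13, was −0.065 without cKO sample 2.

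**Figure D3:**
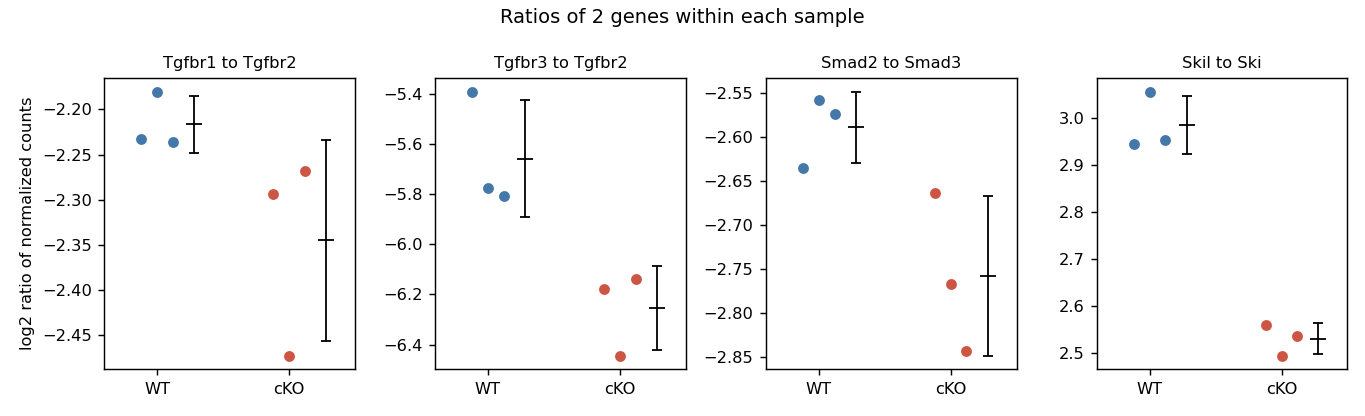
Log2 ratio of the normalized counts of 2 genes within each sample (y axes, one scale per ratio) for WT (blue) and cKO (red), with mean and SD in black. The Skil to Ski ratio lies at 2.95 to 3.06 in WT and 2.49 to 2.56 in cKO, with no overlap.

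Levels of different genes were compared per length, as normalized counts per kilobase of exon. In WT, Smad7 was highest with 5317 ± 111 per kilobase. It was followed by Tgfb1 with 4803 ± 80.9 and Skil with 4392 ± 57.1 per kilobase. Smad3 came next with 3824 ± 117 per kilobase. By their mean over both genotypes, these 4 genes lay at percentiles between 94.8 and 96.2 of the genes whose length was known. Tgfbr2 with 1303 ± 34.0, Smad4 with 1160 ± 29.3 and Ski with 967 ± 38.7 per kilobase formed a middle level. Smad2 with 401 ± 15.1 and Tgfbr1 with 351 ± 14.6 per kilobase were nearer to the median of those genes. Over both genotypes that median was 237. Tgfbr3 lay far below that median, with 32.4 ± 6.02 per kilobase in WT and 21.4 ± 1.76 in cKO.

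In the WT samples, each gene in this order was above the next in every sample. In cKO, Smad3 with 4394 ± 86.0 per kilobase passed Skil with 3738 ± 64.5, and Tgfbr2 and Smad4 overlapped. Per kilobase, Skil was 4.55 ± 0.197 times Ski in WT and 3.31 ± 0.0762 times in cKO. Tgfbr1 was 0.270 ± 0.00590 times Tgfbr2 in WT and 0.247 ± 0.0186 times in cKO. Smad2 was 0.105 ± 0.00293 times Smad3 in WT and 0.0934 ± 0.00588 times in cKO. With the length of a single principal transcript in place of all exons, an alternative added after the data were seen, Tgfb1 came first with 11133 ± 187 per kilobase in WT, followed by Skil and then Smad7, and the order of the other 7 genes was the same.

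**Figure D4:**
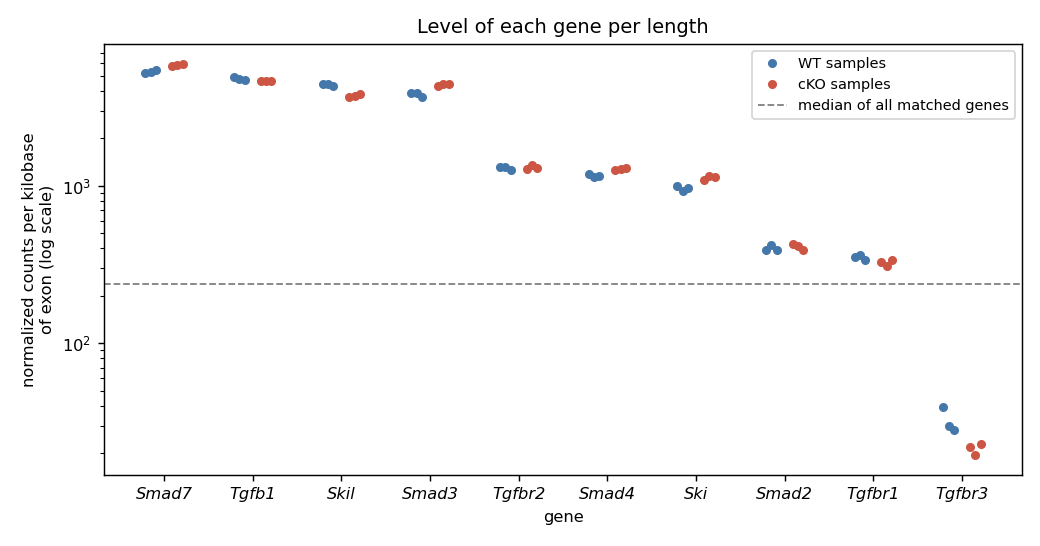
Normalized counts per kilobase of exon (y axis, log scale) of each gene in the WT (blue) and cKO (red) samples, ordered by the WT mean, with the median of all matched genes as a dashed line at 237. Smad7, Tgfb1, Skil and Smad3 lie highest and only Tgfbr3 lies below the line.

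METTL3 methylates adenosine within short consensus sites, of which GGACT, written as DNA, is the commonest form, and m6A is known to gather around stop codons. m6A itself was not measured in these samples, so the sites were only located as letters. The study mapped m6A in other splenic NK cells, expanded in vivo with IL-15, and those data were not used here. The principal transcripts of all 10 genes hold GGACT at least once, as do those of 87.1% of listed genes. With a median length of 5306 bases against 2690, they are long, and their density of 0.804 GGACT per kilobase compares with 1.03 over all genes. For 4 of the 6 called genes, a GGACT is shown in capitals with the 8 bases on each side. Of the sites that lie with these bases within the same exon, it is the nearest to the stop codon. The letters are read from GENCODE transcripts of GRCm38 along the mRNA from 5′ to 3′. The transcripts of the other called genes, Smad4 and Smad7, hold 4 GGACT each, and their sequences are not shown here.
Skil: ccctccaaGGACTaagagctg
Ski: ctgagccaGGACTacacgggc
Smad3: tggtctgtGGACTgctgcttc
Tgfbr3: attgccaaGGACTttataaat
On GRCm38, Skil spans chr3:31095058-31122577 on the plus strand, Ski chr4:155154075-155222592, Smad3 chr9:63646767-63757994 and Tgfbr3 chr5:107106570-107289629, all 3 on the minus strand. Tgfb1 spans chr7:25687002-25705077 and Tgfbr1 chr4:47353222-47414931 on the plus strand, and Tgfbr2 chr9:116084293-116175360 on the minus strand. Within Skil, at chr3:31118599-31118619 on the plus strand, the site overlaps the stop codon, beginning 4 bases before it. A GGACT overlapping the stop codon was found in 1.52% of 11805 coding transcripts, counted without the condition on exons. In Ski, at chr4:155221642-155221662 on the minus strand, the nearest such site is in the coding region, 1315 bases before the stop codon. In Smad3, at chr9:63648767-63648787 on the minus strand, it lies in the 3′ UTR, 1485 bases after the stop codon. In Tgfbr3, at chr5:107107635-107107655 on the minus strand, it is also in the 3′ UTR, 1994 bases after the stop codon. Of the uncalled genes, Tgfbr2 had its nearest such site 103 bases after the stop codon, Tgfbr1 383 bases after it and Tgfb1 868 bases before it. These sites were nearer than those of Ski, Smad3 and Tgfbr3, and that of Skil was the nearest of all. Sites of Smad2, Smad4 and Smad7 were not placed against the stop codon. Whether the position of a site goes with a call was not tested.

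Genes around this core were taken from lists of the wider pathway. The 9 lists hold 105 symbols, among which Ccn2 and Ctgf name the same gene, and 83 were among the listed genes. Of these, 33, or 39.8%, passed the same threshold, close to the 36.6% of all genes, and 17 rose and 16 fell. The median log2 fold change of the 83 genes was −0.030. Beside the counts of each list below stand the 17.8% of all genes called higher and the 18.8% called lower.

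The other ligands moved individually. Of 5 ligands, 1 rose and 1 fell. Gdf15, a stress-induced cytokine distantly related to TGF-β, had a log2 fold change of 1.80 (SE 0.219, adjusted p = 2.72e-07 by limma), from 54.5 ± 11.4 to 192 ± 39.2 normalized counts. Gdf11, which signals through activin type II receptors and SMAD2 and SMAD3, fell from 457 ± 6.11 to 248 ± 5.46 normalized counts, with a log2 fold change of −0.88 (SE 0.108, adjusted p = 3.22e-07 by limma). Of 9 genes that store or activate latent TGF-β, 3 fell and 0 rose. Lrrc32, the gene of GARP, which anchors latent TGF-β on the cell surface, had a log2 fold change of −0.51 (adjusted p = 0.00345 by limma). Itgav, the αv integrin chain that releases active TGF-β, had −0.21 (adjusted p = 0.00144 by limma), and Furin, the protease that cleaves the TGF-β precursor, had −0.14 (adjusted p = 0.00151 by limma).

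Of 9 other receptors and co-receptors, 3 rose and 0 fell. Acvr1, a type I receptor for bone morphogenetic proteins, rose from 24.6 ± 5.25 to 54.5 ± 9.42 normalized counts, a low level, with a log2 fold change of 1.12 (SE 0.328, adjusted p = 0.00830 by limma). Acvr2a, an activin receptor, had a log2 fold change of 0.34 (adjusted p = 0.00314 by limma). Bambi, a decoy receptor without a kinase, had 0.19 (adjusted p = 0.00912 by limma), and its adjusted p was 0.0615 without WT sample 3 and 0.0737 without cKO sample 1.

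Of 8 other SMADs and partners, 2 rose and 1 fell, beside 4 and 1 with equal totals and 1 and 1 once GC content and length were corrected for. Smad5, which carries bone morphogenetic protein signals, fell from 3722 ± 9.83 to 2871 ± 77.2 normalized counts, with a log2 fold change of −0.37 (SE 0.0420, adjusted p = 6.83e-08 by limma). Hgs, an endosomal protein that helps bring SMADs to the receptor, had 0.24 (adjusted p = 0.000188 by limma). Crebbp, a histone acetyltransferase that SMADs recruit, had a log2 fold change of 0.12 (adjusted p = 0.0194 by limma), with adjusted p values of 0.140 without WT sample 2, 0.165 without cKO sample 3 and 0.163 after that correction. Of 14 genes of SMAD and receptor turnover, 2 rose and 1 fell, beside 4 and 1 with equal totals and 2 and 4 after that correction. Rnf111, the ubiquitin ligase Arkadia, which marks the SKI, SKIL and SMAD7 proteins for destruction, rose from 3835 ± 169 to 4717 ± 215 normalized counts, with a log2 fold change of 0.30 (SE 0.0435, adjusted p = 4.29e-06 by limma). Usp15, a deubiquitinase that sustains the pathway, had 0.15 (adjusted p = 0.00261 by limma), and Ldlrad4, a membrane protein that holds SMADs back, had −0.35 (adjusted p = 5.90e-05 by limma).

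Of 8 further SMAD co-repressors, 1 rose and 3 fell, beside 1 and 1 with equal totals and 1 and 5 after the GC and length correction. Tgif2, a homeodomain repressor, fell with a log2 fold change of −0.46 (SE 0.0587, adjusted p = 6.44e-07 by limma). Its relative Tgif1 had −0.11 (adjusted p = 0.00821 by limma) and Zeb1, a zinc finger repressor, had 0.16 (adjusted p = 0.00603 by limma). Hdac1, a histone deacetylase, had −0.094 (adjusted p = 0.0363 by limma), and its adjusted p ran from 0.0575 to 0.197 without WT sample 1, 2 or 3 or cKO sample 1 or 3. Of 9 genes of the SMAD-independent arm, 1 rose and 4 fell, beside 2 and 3 with equal totals and 0 and 4 once GC content and length were corrected for, and 3 were called without WT sample 2 or cKO sample 2. Rhoa, a small GTPase of the cytoskeleton, had a log2 fold change of −0.30 (adjusted p = 8.89e-09 by limma) and Traf6, the ubiquitin ligase that links the receptor to TAK1, had −0.27 (adjusted p = 9.24e-07 by limma). The weakest calls of this arm were Pard6a, a polarity protein with −0.18 (adjusted p = 0.0286 by limma), and Mapk14, the kinase p38α with 0.10 (adjusted p = 0.0265 by limma), with adjusted p values from 0.0688 to 0.125 for Pard6a without WT sample 2 or 3 or cKO sample 2 or 3 and from 0.0603 to 0.168 for Mapk14 without WT sample 2 or cKO sample 1 or 2.

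**Figure D5:**
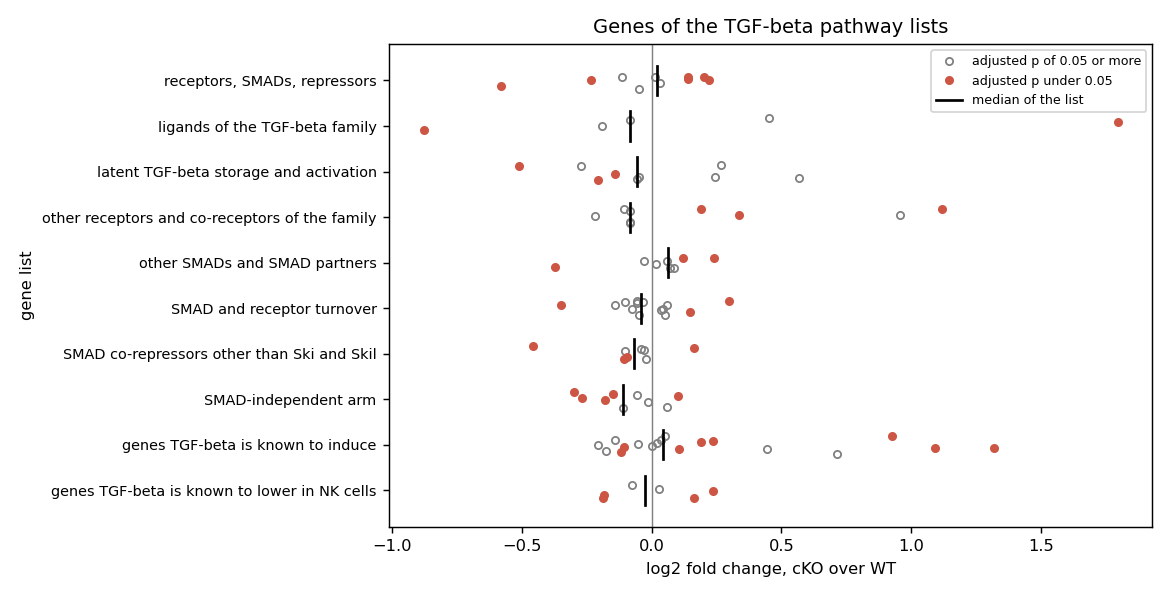
Log2 fold change of cKO over WT (x axis) of the listed genes of each pathway list (y axis), filled where the adjusted p from limma was under 0.05, with the median of each list as a bar. The medians lie between −0.11 and 0.064, and each list holds genes on both sides of 0.

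Genes that TGF-β is known to induce in at least some cell types did not move as one. Of 18 such genes, 6 rose and 2 fell, with a median log2 fold change of 0.043. Nt5e, the gene of the ectonucleotidase CD73, rose from 563 ± 59.2 to 1401 ± 58.9 normalized counts, with a log2 fold change of 1.32 (SE 0.0771, adjusted p = 3.06e-13 by limma). Ctla4, an inhibitory receptor, had 1.09 (SE 0.222, adjusted p = 0.000292 by limma) and Id3, an inhibitor of E proteins, had 0.93 (SE 0.183, adjusted p = 0.000208 by limma), from 66.1 and 101 normalized counts in WT. Cd69, an activation and residency marker, had −0.12 (adjusted p = 0.00562 by limma), with adjusted p values of 0.0690 with equal totals and 0.0597 without cKO sample 3, and Tgif1 lost its call with equal totals (adjusted p = 0.135). With equal totals, 8 of the 18 genes were higher and 0 lower. Itgae and Itga1, the integrin chains typical of resident cells, had log2 fold changes of −0.18 (adjusted p = 0.548 by limma) and 0.020 (adjusted p = 0.921 by limma). Of 7 markers of type 1 innate lymphoid cells, 0 were called by limma or by limma-voom and 0 had an unadjusted p under 0.05.

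Of 6 genes that TGF-β is known to lower in NK cells, 2 rose and 2 fell. Tbx21, the transcription factor T-bet, had a log2 fold change of 0.23 (adjusted p = 5.47e-07 by limma) and Ifng, the gene of interferon-γ, had 0.16 (adjusted p = 0.000350 by limma). Klrk1, the receptor NKG2D, and Prf1, the pore-forming perforin, had −0.19 (adjusted p = 1.25e-05 by limma) and −0.18 (adjusted p = 6.28e-05 by limma).

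Markers of other cell types moved with genotype in some lists. Beside the counts of markers stand the 17.8% of all genes called higher and the 18.8% called lower. Of 10 NK cell markers, 2 were higher in cKO and 5 lower, and their summed normalized counts were 798291 to 835915 in WT and 759624 to 796100 in cKO. The 3 largest falls were in Ncr1, the locus that carries Cre, with a change of −24.5%, Nkg7 with −20.7% and Klrb1c with −17.2% (adjusted p = 3.56e-11, 1.03e-08 and 8.07e-08 by limma). The markers that rose were Tbx21 and Il2rb, by 17.7% and 10.1%. Of 10 B-cell markers 7 were higher in cKO and 0 lower, and their sum was 1637 to 1660 in WT and 2112 to 2162 in cKO. Of 8 T-cell markers 2 were lower, Cd28 and Cd3g, and the sum of the list was 14115 to 15252 in WT and 9973 to 10487 in cKO, of which Cd28 made up most. Of 8 myeloid markers 4 were higher and 2 lower, with sums of 50882 to 53867 and 53318 to 55061, of which Itgax, which NK cells also express, made up most. Of the markers of platelets, red cells and stroma that were listed, 2, 6 and 4, 0 were called by limma or by limma-voom, and 1, an erythroid one, had an unadjusted p under 0.05. Markers of NK cell maturity moved both ways, with 3 of 8 mature and 3 of 8 immature markers higher and 1 of each lower. The part of these cells in the changes of Ski, Skil, Tgfbr3, Nt5e and Ctla4 and the other genes above was not tested.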

How the data were processed

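Per the labels and the study's methods, the authors aligned paired-end mRNA-seq reads to GRCm38 with HISAT2, took gene counts from featureCounts and normalized with DESeq2. The submitters' processing notes give versions 2.0.5, 1.5.0-p3 and 1.16.1 of these tools, while the study's methods give other versions of HISAT2 and DESeq2, and which were used for the deposited table was not settled here. The 6 deposited sample columns hold a signal, the count of each gene divided by the size factor of its sample. The strand setting is not given in the sources used here. The table also holds the authors' mean, fold changes, test statistics and p-values, which were not used. Within a sample the values rise in equal steps, each worth 1 read, and reads and depth were taken from these steps.

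Here log2(value + 1) was compared between cKO and WT with limma 3.58.1 (R 4.3.3, variance trend, two-sided, Benjamini-Hochberg over 14490 genes). The filter of at least 1 in at least 3 samples removed none. The added 1 slightly understates changes of scarce genes. The table lists only genes to which the authors gave an adjusted p-value. Samples of a genotype were further apart than counting noise allows (lowest chi-square per degree of freedom 5.50). Positions, lengths and sequences came from GENCODE vM21 on GRCm38, which matched 97.1% of names and all 10 genes. The exons of Tgfbr3 share 297 of 6545 bases with an unlisted transcript on the same strand, and no other of the 10 genes shares exonic bases. The genes, lists and tests were chosen with earlier results of these data known. Named genes are the 10, Mettl3 and, per pathway list, up to 3 rises and 3 falls past the threshold at 1 CPM or more, plus any past a log2 fold change of 1. Markers and a few uncalled residency genes were named after their values were seen. Of the steps, only the main limma comparison was tested on simulated counts. Alternatives were an added 0.1, no filter, a filter of 1 CPM in 3 samples, equal totals, limma-voom on the recovered reads, a replicate block, each sample left out, other limits in the study's rule and, added after the data were seen, other lengths. A correction for GC content and length used splines of 5 degrees of freedom.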

Additional observations from a re-analysis of the deposited data

How the results depend on the processing

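The number of the 10 genes with an adjusted p under 0.05 was 6. It reached 7 after the GC and length correction and lay from 5 to 7 when single samples were dropped. The 4 higher genes stayed at 4 in all 13 alternatives, and the lower ones numbered from 1 to 3 with a sample left out. The study's rule gave 0 of the 10 genes in each of them and with its limits changed. With a limit of 1.5-fold, Tgfbr3 fell just short, being 1.498-fold higher in WT than in cKO. Of 130 values of the 10 genes under the alternatives, 123 kept direction and side of the threshold. Part of this was fixed in advance. The fit without a filter could not differ from the main one, because the filter removed no gene. The replicate block left all fold changes as they were, so no direction could turn there. Tgfb1 had a log2 fold change of 0.00017 with equal totals and −0.089 after correction for GC content and length, where it was called lower. Tgfbr2, −0.024 under that correction, ran from −0.015 to 0.027 with a sample left out, and its sign turned without WT sample 3 and without cKO sample 2. Tgfbr1 ran from −0.15 to −0.079 and Tgfbr3 from −0.68 to −0.44 with a sample left out. The cause was not tested. Equal totals gave 5 calls in place of 3 among other SMADs and partners, 5 in place of 3 in SMAD and receptor turnover, and 2 in place of 4 among co-repressors. The GC and length correction gave 6 calls in SMAD and receptor turnover and 6, of which 5 were lower in place of 3, among co-repressors. The SMAD-independent arm had from 3 to 5 calls with a sample left out. All genes called numbered 5307, from 4417 to 4922 with a sample left out.

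Deviations of same-numbered WT and cKO samples had correlations from −0.040 to 0.056, and those of differently numbered samples from −0.067 to 0.035. The labels do not say whether the numbers pair samples, and with 3 samples per genotype these correlations cannot settle it. With the replicate number as a block, 5543 genes and the same number of the 10 genes, 6, were called. The planned edgeR, DESeq2 and TMM fits were not run, and limma-voom on the reads recovered from the steps was run in their place. Tgfbr3 and Acvr1 had low counts, and Acvr1 was not tested at 1 CPM or more in 3 samples. For Tgfbr3 the SD over the WT samples was 18.6% of their mean, above the counting error of 8.45% at its fewest reads. What set this spread was not tested.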
